A study of Mus musculus with 3 samples.

Results

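The phosphatases of the excitatory synapse were examined through 10 genes in hippocampal cells sorted as CA1 pyramidal neurons. The genes were taken by symbol from the 52636 genes of the count table. They were the calcineurin genes Ppp3ca, Ppp3cb and Ppp3r1, the PP1 inhibitor genes Ppp1r1a and Ppp1r1b, the PP1 catalytic genes Ppp1ca, Ppp1cb and Ppp1cc, the PP2A catalytic gene Ppp2ca and the tyrosine phosphatase gene Ptpn5. All 10 were found, each as 1 gene of GENCODE vM21. RNA-Seq had been performed on live tdTomato-positive cells, sorted by fluorescence-activated cell sorting (FACS) from papain-dissociated whole hippocampi of male C57BL/6J mice, 28 to 32 days after birth. The mice carried Camk2a-Cre +/-, which drives recombination in forebrain excitatory neurons, and Ai14 +/-, which makes any recombined cell express tdTomato. There were 3 biological replicates, each with cells pooled from 2 to 4 mice, and they formed the only group. No other genotype, treatment or unsorted tissue was analysed here, so the values are levels and not enrichments.

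Protein phosphatases reverse the phosphorylation that kinases such as CaM kinase II and protein kinase A place on receptors, channels and scaffolds of the synapse. Calcineurin, made of a catalytic A subunit and a calcium-binding B subunit, is switched on by calcium and calmodulin. It removes the phosphate from inhibitor-1 and DARPP-32, which block PP1 only while protein kinase A keeps them phosphorylated, and calcium entry can thereby release PP1. This cascade is known from long-term depression at CA1 synapses. PP2A is the other abundant serine/threonine phosphatase of neurons, and STEP, the product of Ptpn5, acts on phosphotyrosine of NMDA receptors and of the kinases Fyn and Pyk2.

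The point where calcineurin, protein kinase A and PP1 meet is a short stretch near the start of both inhibitor genes. It is shown because these genes carry the same regulatory site and lay far apart in level. Each line below gives 90 coding bases, 5′ to 3′, of 1 transcript of GENCODE vM21. Capitals mark the 4 codons of the PP1-docking motif and the codon of the threonine that protein kinase A phosphorylates.
Ppp1r1a: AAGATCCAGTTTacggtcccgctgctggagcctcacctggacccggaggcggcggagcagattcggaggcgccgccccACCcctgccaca
Ppp1r1b: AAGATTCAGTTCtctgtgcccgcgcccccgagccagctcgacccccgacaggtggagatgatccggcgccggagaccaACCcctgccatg
The threonine codon is number 35 in Ppp1r1a, which encodes inhibitor-1, and number 34 in Ppp1r1b, which encodes DARPP-32. The docking motif begins at codon 9 in Ppp1r1a and codon 8 in Ppp1r1b. Over their whole aligned coding sequence the genes shared 47.6% of bases, and their longest identical run was 10 bases.

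Replicate 1 was the deepest library with 48159841 assigned counts, beside 25686630 in replicate 2 and 15833075 in replicate 3, which span 3.04-fold. Levels are TPM, the usual length-scaled measure of transcript abundance, which divide counts by the gene's merged exon length and by the summed rate of the 21883 nuclear protein-coding genes. Over all genes a 57 bp noncoding feature, Gm23935, took 32.7% to 48.3% of TPM, so that total was kept as an alternative. A count of 0 allows up to 3 counts, or 0.108 to 0.349 TPM for a gene of median length, and this floor covers counting error only. The 5 CA1 pyramidal markers summed to 1369 to 1514 TPM over replicates, and Fibcd1 and Wfs1, which define these neurons, had 450 and 404 TPM on average. All 6 dentate granule markers were also at 1 TPM or more and summed to 960 to 1060 TPM. The CA2 list summed to 459 to 505 TPM, mostly Pcp4 at 337 TPM, and the CA3 list to 113 to 122 TPM. The 5 oligodendrocyte markers, led by Mbp, summed to 947 to 1036 TPM. The interneuron list summed to 48.6 to 85.9 TPM, most of it Gad1 at 52.1 ± 8.27 TPM, whereas Slc32a1 had 19, 0 and 0 counts. The astrocyte list summed to 36.0 to 75.7 TPM, and the endothelial list differed most between replicates, at 7.41 to 60.2 TPM. The part of these other cells in the phosphatase levels was not tested. In such bulk samples, fewer cells of a type and less RNA per cell cannot be told apart.

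All 10 phosphatase genes were well expressed, from 230 counts of Ppp1r1b in replicate 3 to 161023 counts of Ppp3ca in replicate 1. Each reached 1 TPM in all 3 replicates, as did 60.1% of nuclear protein-coding genes (13150 of 21883). Of the 10, 8 lay in the top 10% of protein-coding genes by mean TPM, whereas the median protein-coding gene had 7.07 TPM. The calcineurin genes Ppp3ca and Ppp3r1 together took 69.1% of the summed TPM of the 10 genes, and the first gene in the order was 59.9-fold above the last. Between replicates the levels were close. The highest replicate exceeded the lowest by 1.08-fold for Ptpn5 and by 1.22-fold for Ppp1cb, and the other 8 genes lay in between.

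**Figure D1:**
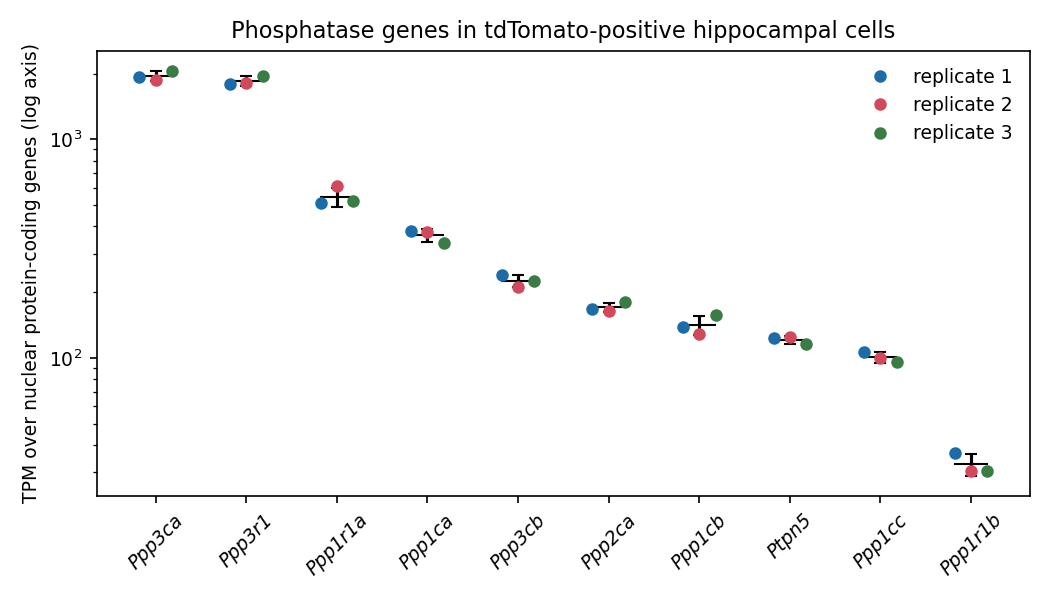
TPM over nuclear protein-coding genes on a log axis for the 10 phosphatase genes, ordered by mean level. Points are the 3 replicates, and the horizontal line and bar are the mean and SD. Ppp3ca and Ppp3r1 sit between 1787 and 2056 TPM, 7 genes lie between 95.5 and 610 TPM, and Ppp1r1b lies near 32.6 TPM.

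Ppp3ca, the gene of the calcineurin Aα catalytic subunit, was the most abundant of the 10. It had 1935, 1863 and 2056 TPM in replicates 1, 2 and 3, or 1951 ± 97.7 TPM (SD, n = 3), and ranked 18 of 21883 protein-coding genes. Ppp3cb, which encodes the Aβ form of the same subunit, had 239, 211 and 226 TPM, or 225 ± 14.0 TPM. Every replicate of Ppp3ca was therefore far above every replicate of Ppp3cb. The log2 ratio within replicates was 3.11 ± 0.09, an 8.66-fold difference that ran from 8.10-fold to 9.09-fold in single replicates. The two-sided exact sign-flip permutation test over replicates gave p = 0.25, the smallest that this test allows with 3 replicates, and it was the test used for every ratio and neighbour difference here. A difference is called beyond the spread where it had 1 sign in 3 of 3 replicates and exceeded 2 SD, which this one did.

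The A subunit has a further gene, Ppp3cc, known for its expression in testis. It had 49.9 ± 6.40 TPM, from 715, 422 and 285 counts. In the summed TPM of the A subunit genes, Ppp3ca held 87.6% ± 0.348, Ppp3cb 10.1% ± 0.577 and Ppp3cc 2.24% ± 0.228 (SD, n = 3). The SD of each share was below 1 percentage point, and Ppp3ca and Ppp3cb shared 72.9% of aligned coding bases with no identical run longer than 20 bases. Ppp3ca lies on chromosome 3 of GRCm38 from 136670124 to 136937727 on the plus strand, and Ppp3cb on chromosome 14 from 20499364 to 20546573 on the minus strand. No exon of either gene overlapped an exon of another gene.

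Ppp3r1 encodes calcineurin B, the regulatory subunit that binds calcium and that the A subunit needs for activity. It had 1787, 1811 and 1956 TPM, or 1851 ± 91.8 TPM (SD, n = 3), rank 21 of the protein-coding genes. Ppp3r1 was thus second in the order, with Ppp3ca above it in 3 of 3 replicates by a log2 difference of 0.08 ± 0.04, which was 1.70 in CPM. The summed A subunit members Ppp3ca and Ppp3cb had 2177 ± 104 TPM and exceeded Ppp3r1 by 0.23 ± 0.04 on the log2 scale, or 1.18-fold. That near-equality depended on gene length, and with the median coding transcript length the excess was 2.98-fold. Ppp3r2, the B subunit gene known from testis, had 1.55, 1.42 and 2.56 TPM from 39, 19 and 20 counts. Almost all B subunit transcripts therefore came from Ppp3r1. The gene lies on chromosome 11 from 17159263 to 17200375 on the plus strand, and 14.3% of its exon bases overlap Wdr92 on the same strand, which had 452, 288 and 196 counts. How reads in overlapping exons were counted is not stated, so the small differences of Ppp3r1 from Ppp3ca and from the summed A subunit members are uncertain.

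**Figure D2:**
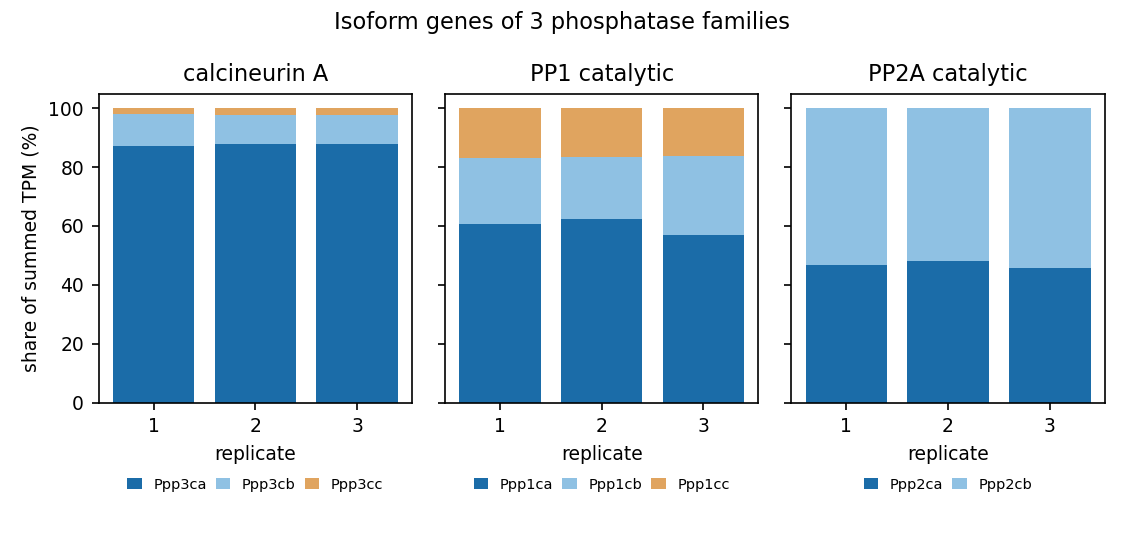
Share of summed TPM in percent held by each gene within the calcineurin A, PP1 catalytic and PP2A catalytic families. Each bar is 1 replicate, and the colours are the genes of the family. Ppp3ca fills 87.2% to 87.9% of the calcineurin A bars, Ppp1ca 56.9% to 62.3% of the PP1 bars, and Ppp2ca 45.6% to 48.1% of the PP2A bars.

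Of the PP1 inhibitors whose site is printed above, Ppp1r1a was abundant and Ppp1r1b was not. Ppp1r1a had 511, 610 and 521 TPM, or 547 ± 54.3 TPM (SD, n = 3), next in the order after Ppp3ca and Ppp3r1 and rank 193 of the protein-coding genes. Ppp1r1b had 36.8, 30.5 and 30.5 TPM, or 32.6 ± 3.65 TPM, rank 6801, which is within the top 31.1% of protein-coding genes. The replicates of the genes did not come near each other, and the log2 ratio of Ppp1r1a over Ppp1r1b was 4.07 ± 0.26, or 16.8-fold, and 7.44-fold in CPM. It was 3.80, 4.32 and 4.10 in replicates 1, 2 and 3, the widest range between replicates among the ratios of phosphatase genes, since Ppp1r1a was highest in replicate 2 and Ppp1r1b in replicate 1. Ppp1r1a had no exon overlap and no 31-base word in common with another gene. Ppp1r1b shares 15.7% of its exon bases with 1700003D09Rik on the opposite strand, which had 15, 2 and 6 counts.

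DARPP-32 is best known from striatal medium spiny neurons, and the markers of these neurons were near the floor in part. Of 6 such markers 3 reached 1 TPM in each replicate, and the list summed to 41.1 to 49.2 TPM, mostly Rgs9 at 32.7 ± 3.23 TPM. The defining receptor gene Drd2 had 15, 1 and 2 counts, Drd1 had 7.46 ± 0.538 TPM, and Isl1 had 0, 1 and 0 counts. The dentate granule markers, which were far higher, belong to another hippocampal neuron. The part of either list in the Ppp1r1b level was not tested. The related inhibitor gene Ppp1r1c had 4, 3 and 2 counts, at the floor in replicates 2 and 3. Ppp1r1a lies on chromosome 15 from 103530279 to 103537992 on the minus strand and Ppp1r1b on chromosome 11 from 98348404 to 98357796 on the plus strand.

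The PP1 catalytic subunit comes from 3 genes, and Ppp1ca had the highest TPM of them. Ppp1ca, which encodes PP1α, had 380, 379 and 334 TPM, or 364 ± 26.2 TPM (SD, n = 3). Ppp1cb, which encodes PP1β, had 139, 129 and 157 TPM, or 142 ± 14.6 TPM. Ppp1cc, the gene of PP1γ, had 106, 100 and 95.5 TPM, or 101 ± 5.41 TPM. No replicate of one gene overlapped a replicate of another. Ppp1ca was lowest in replicate 3, where Ppp1cb was highest. Ppp1ca held 60.0% ± 2.79 of the PP1 total, Ppp1cb 23.4% ± 3.02 and Ppp1cc 16.6% ± 0.374.

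The lead of Ppp1ca did not hold under every gene length. With the median coding transcript length Ppp1ca held 32.0% of the PP1 total and Ppp1cb 45.6%, and in CPM, counts scaled by library total with no length, the shares were 21.1% and 64.5%. The merged exons of Ppp1cb span 10913 bp against 3172.5 bp for its median coding transcript, while Ppp1ca has 1379 and 1473 bp. The transcript lengths are those of GENCODE vM21, whose exons of Ppp1ca merge to 2520 bp, so the table was counted on a smaller annotation of this gene. Ppp1ca had fewer counts than Ppp1cb in each replicate, 4368, 2307 and 1188 counts for Ppp1ca and 12638, 6197 and 4432 counts for Ppp1cb. Which of these genes gave more transcripts cannot be told from gene counts alone.

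Sharing of reads between PP1 genes depends on identical sequence, and the longest run of identical coding bases is shown for that reason. It was found between Ppp1ca and Ppp1cc, at coding bases 841 to 884 of both, in transcripts of GENCODE vM21.
Ppp1ca and Ppp1cc: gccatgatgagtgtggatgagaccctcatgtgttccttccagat
This run is 44 bases, shorter than the reads that the paper describes. Over the aligned coding sequence the genes agreed at 77.7% of bases. A larger overlap was that of Ppp1cc with Ppp1ccb, annotated as a transcribed processed pseudogene on chromosome 7. Of the 3496 different 31-base words in Ppp1cc transcripts, 41.7% also occurred in other genes, and 1421 were in Ppp1ccb. Ppp1ccb was listed with 1244, 580 and 420 counts, or 101 ± 10.8 TPM, close to Ppp1cc itself. The sources used here do not state how reads with several matches were counted, so the Ppp1cc level is uncertain. With the Ppp1ccb counts added to Ppp1cc, a setting chosen after seeing the data, Ppp1cc held 22.1% ± 0.578 of the PP1 total and Ppp1ca 56.0%.

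Exon overlaps of the PP1 genes were smaller. Ppp1ca, on chromosome 19 from 4192158 to 4195419, shares 16.1% of its exon bases with Rad9a on the opposite strand, which had 302, 160 and 76 counts. Ppp1cb, on chromosome 5 from 32458843 to 32517433, shares 17.5% with Gm43312 on the same strand, which had 27, 19 and 18 counts. Ppp1cc lies on the same chromosome from 122158278 to 122175273 and has no exon overlap. All 3 are on the plus strand.

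Between families, calcineurin transcripts exceeded those of PP1, and Ppp1r1a with Ppp1r1b did not differ from PP1 beyond the spread. Ppp3ca and Ppp3cb together exceeded the 3 PP1 genes, which summed to 607 ± 19.1 TPM, by 1.84 ± 0.10 on the log2 scale, or 3.59-fold. This excess was beyond the spread and reached 8.97-fold in CPM. Ppp1r1a and Ppp1r1b summed to 580 ± 52.3 TPM, and their log2 ratio to the PP1 genes was -0.07 ± 0.13 (two-sided exact sign-flip p = 0.5). Its sign differed between replicates, with folds of 0.877, 1.05 and 0.939, and this pair of genes was at 0.557-fold of PP1 with the median coding transcript length and at 0.336-fold in CPM. Camk2a, the CaM kinase II α gene whose product is activated by the same calcium sensor, had 1615 ± 8.62 TPM. It lay below the sum of Ppp3ca and Ppp3cb, with a log2 ratio of -0.43 ± 0.06. That ratio was 0.51 with the median coding transcript length, so its direction rests on the length used. For Camk2a this length is 1356.5 bp, against 7465 bp of merged exons. The ratio was -0.93 with the longest transcript length and -0.83 in CPM.

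Ppp2ca encodes the α form of the PP2A catalytic subunit. It had 168, 164 and 180 TPM, or 171 ± 8.30 TPM (SD, n = 3), rank 1246 of the protein-coding genes. The β form, Ppp2cb, had 191, 177 and 215 TPM, or 194 ± 18.9 TPM, and the log2 ratio of Ppp2ca over Ppp2cb was -0.18 ± 0.07. The genes were thus near equal per length, with Ppp2ca the lower in 3 of 3 replicates and at 46.8% ± 1.24 of their sum. Their products are nearly identical, whereas their coding bases matched at 81.7%. The longest identical coding run, bases 15 to 39 of both, is printed because it bounds how far reads of the coding sequence could be shared.
Ppp2ca and Ppp2cb: gttcaccaaggagctggaccagtgg
This run of 25 bases is shorter than the 31-base words searched, and no such word of Ppp2cb occurred in another gene. In CPM the log2 ratio was 2.17 in the opposite direction, from 10477, 5435 and 3479 counts of Ppp2ca and 2340, 1150 and 813 counts of Ppp2cb. Ppp2ca lies on chromosome 11 from 52098681 to 52127778 on the plus strand. Other annotations cover 41.3% of its exon bases, mainly the lincRNA 9430098F02Rik on the opposite strand, which had 0 counts in all 3 replicates. Ppp2cb has no exon overlap. How reads in overlapping exons were counted is not stated, so the Ppp2ca level and its ratio to Ppp2cb are uncertain.

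Ptpn5 encodes STEP, the striatal-enriched tyrosine phosphatase, and was the only tyrosine phosphatase gene of the 10. It had 123, 125 and 115 TPM, or 121 ± 5.19 TPM (SD, n = 3), rank 1963 of the protein-coding genes. Its replicates overlapped in no case with those of Ppp1cc, its lower neighbour. Every replicate of Ptpn5 was also above every replicate of Ppp1r1b, the other gene best known from striatum. Of the listed STEP substrate genes, Ptk2b, which encodes Pyk2, had 733 ± 38.5 TPM and the NMDA receptor gene Grin2b 454 ± 50.3 TPM. Ptpn5 lies on chromosome 7 from 47077795 to 47133684 on the minus strand with no exon overlap.

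The order of levels was Ppp3ca, Ppp3r1, Ppp1r1a, Ppp1ca, Ppp3cb, Ppp2ca, Ppp1cb, Ptpn5, Ppp1cc and Ppp1r1b. Of the 9 pairs of neighbours, 8 differed beyond their spread, Ppp3ca over Ppp3r1 only narrowly, at 0.0759 ± 0.037. The exception was Ppp1cb and Ptpn5, with a log2 difference of 0.22 ± 0.21 (SD, n = 3), although Ppp1cb was higher in 3 of 3 replicates. The widest steps were from Ppp3r1 to Ppp1r1a, at 1.76 ± 0.17, and from Ppp1cc to Ppp1r1b, at 1.63 ± 0.10. Between these steps, the 7 middle genes were separated by 0.59 ± 0.14 for Ppp1r1a over Ppp1ca, 0.69 ± 0.14 for Ppp1ca over Ppp3cb, 0.40 ± 0.10 for Ppp3cb over Ppp2ca, 0.27 ± 0.08 for Ppp2ca over Ppp1cb and 0.27 ± 0.05 for Ptpn5 over Ppp1cc.

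Gene length decided the order of the middle genes and not its ends. Ppp3ca was first, Ppp3r1 second and Ppp1r1b last in all 7 settings. The settings that changed only the total or the normalization kept the merged exon length and had to give the main order. With the length of the longest transcript, Ppp3cb was above Ppp1ca, at 400 ± 26.1 TPM against 263 ± 19.9 TPM, and Ppp2ca was below both Ppp1cb and Ptpn5, at 139 ± 6.32 TPM. With the median coding transcript length, Ppp1r1a was below Ppp3cb, at 217 ± 21.2 TPM against 250 ± 18.6 TPM, and Ptpn5 was below Ppp1cc. The lengths behind these moves were 8809, 3831 and 3186 bp for Ppp3cb as merged exons, longest transcript and median coding transcript. Ppp2ca had 7490, 7102 and 7102 bp, and Ppp1r1a 1295, 1306 and 1306 bp. Genes with long merged exons but short transcripts thus moved up.

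**Figure D3:**
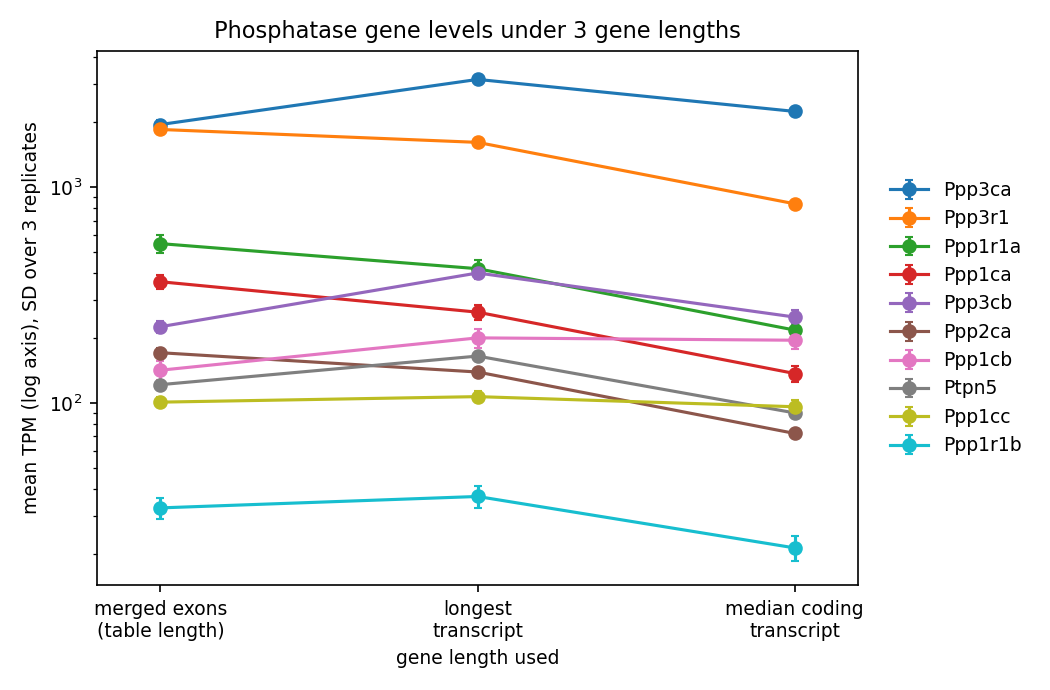
Mean TPM on a log axis, with the SD over 3 replicates, for the 10 phosphatase genes under merged exon length, longest transcript length and median coding transcript length. The lines of Ppp3ca, Ppp3r1 and Ppp1r1b cross no other line, whereas those of Ppp3cb, Ppp1ca, Ppp1cb, Ppp2ca, Ptpn5, Ppp1cc and Ppp1r1a cross at least 1.

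The spread between replicates was set beside that of other genes, as the coefficient of variation (CV) of normalized counts scaled by median-of-ratios size factors. Its median over the 10 genes was 7.93%. Ppp3ca, Ppp3r1 and Ppp2ca lay below the median of protein-coding genes within 2-fold of their mean count, and the other 7 lay above it. Ppp3r1 varied by 1.30%, against a median of 6.96% over 163 such genes, of which 3.07% had a lower CV. Ppp2ca varied by 2.37%, against 6.35% over 1539 genes, and Ppp3ca by 3.12%, against 7.04% over 10 genes. In TPM these 3 genes varied more, Ppp3r1 by 4.96%, Ppp2ca by 4.86% and Ppp3ca by 5.01%. Ptpn5 then had the lowest CV of the 10 at 4.28%, against 7.71% in normalized counts. Which gene was steadiest thus rests on the scaling, and genes of like count were compared in normalized counts only. At the other end, Ppp1r1a varied by 11.1%, against 6.46%, and Ppp1ca by 10.7%, against 6.72%. Ppp1r1b had the highest CV of the 10 at 14.3%, against 9.31% for genes of like count and 5.16% for its counting error alone.

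In normalized counts 7 of the 10 genes were highest in replicate 1, the deepest library, as were 41.1% of the 13150 detected protein-coding genes. In TPM this held for 4 of the 10 and 27.1% of detected genes, so the count rests on the scaling. The lowest normalized counts were split, with 5 genes lowest in replicate 2 and 5 lowest in replicate 3. Leaving out replicate 1, 2 or 3 gave a median CV of 5.48%, 6.51% or 4.87%. A CV of 2 values tends to be lower than one of 3, so these cannot be set against the 7.93% over all 3. The part of depth in the spread between replicates was not tested. The biological replicates pool different mice, and the labels do not give the cells sorted from each.

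**Figure D4:**
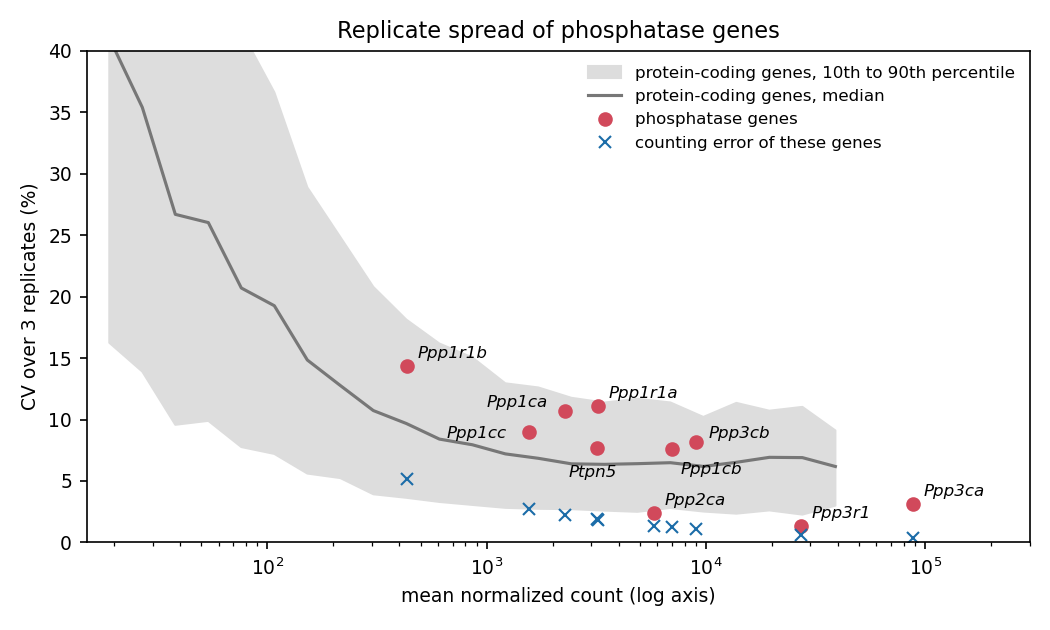
CV over 3 replicates in percent against the mean normalized count on a log axis. The grey line and band are the median and the 10th to 90th percentile of protein-coding genes in bins of mean count, red points are the 10 phosphatase genes and blue crosses their counting error. Ppp3r1 at 1.30% lies under the band, while Ppp1r1b at 14.3% lies above the median line.

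The partners of these phosphatases were present with few exceptions. Over all further lists of phosphatases, regulators, kinases and substrates, 124 of 137 genes reached 1 TPM in each replicate, or 90.5%, beside 60.1% of nuclear protein-coding genes. Of calcineurin regulators and anchors all 7 did, led by Fkbp1a at 785 ± 20.5 TPM and Ppia at 236 ± 23.8 TPM, which encode the immunophilins that carry the calcineurin-blocking drugs, and by the inhibitor gene Cabin1 at 80.5 ± 1.01 TPM. The NFAT transcription factors, substrates of calcineurin, were low. Only 2 of 4 reached the threshold, Nfatc3 at 10.6 ± 2.26 TPM and Nfatc2 at 9.19 ± 0.694 TPM, and Nfatc1 had 20, 6 and 5 counts. All 9 opposing kinase genes were detected, with Camk2b at 1085 ± 60.6 TPM and Cdk5r1, the p35 activator of Cdk5, at 586 ± 12.2 TPM after Camk2a.

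PP1 acts through subunits that bring it to its substrates, and all 16 listed were detected, with a median of 59.9 TPM. The highest was Ppp1r9b, which encodes the spine protein spinophilin, at 602 ± 39.7 TPM, above each of Ppp1ca, Ppp1cb and Ppp1cc per length. Phactr1 had 238 ± 22.5 TPM and the myosin phosphatase subunit gene Ppp1r12a 198 ± 13.4 TPM. Of 8 other PP1 inhibitor genes, 6 were detected, led by Ppp1r11 at 93.8 ± 5.34 TPM, Ppp1r2 at 78.2 ± 4.35 TPM and Ppp1r8 at 57.9 ± 0.965 TPM. The 8 summed to 326 ± 7.21 TPM and were not part of the ratio of inhibitors to PP1 above. None of them came near Ppp1r1a, and Ppp1r14d had 3, 0 and 0 counts.

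All 14 other core and regulatory genes of PP2A were detected beside Ppp2ca, with a median of 72.9 TPM. The scaffold gene Ppp2r1a had 542 ± 46.3 TPM and the neuronal B subunit gene Ppp2r2c 396 ± 25.6 TPM, both above Ppp2ca, and Ppp2cb came next. All 9 PP2A inhibitors and activators were detected, led by Anp32a at 272 ± 7.17 TPM, Ensa at 250 ± 18.1 TPM and the methylesterase gene Ppme1 at 185 ± 10.5 TPM.

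**Figure D5:**
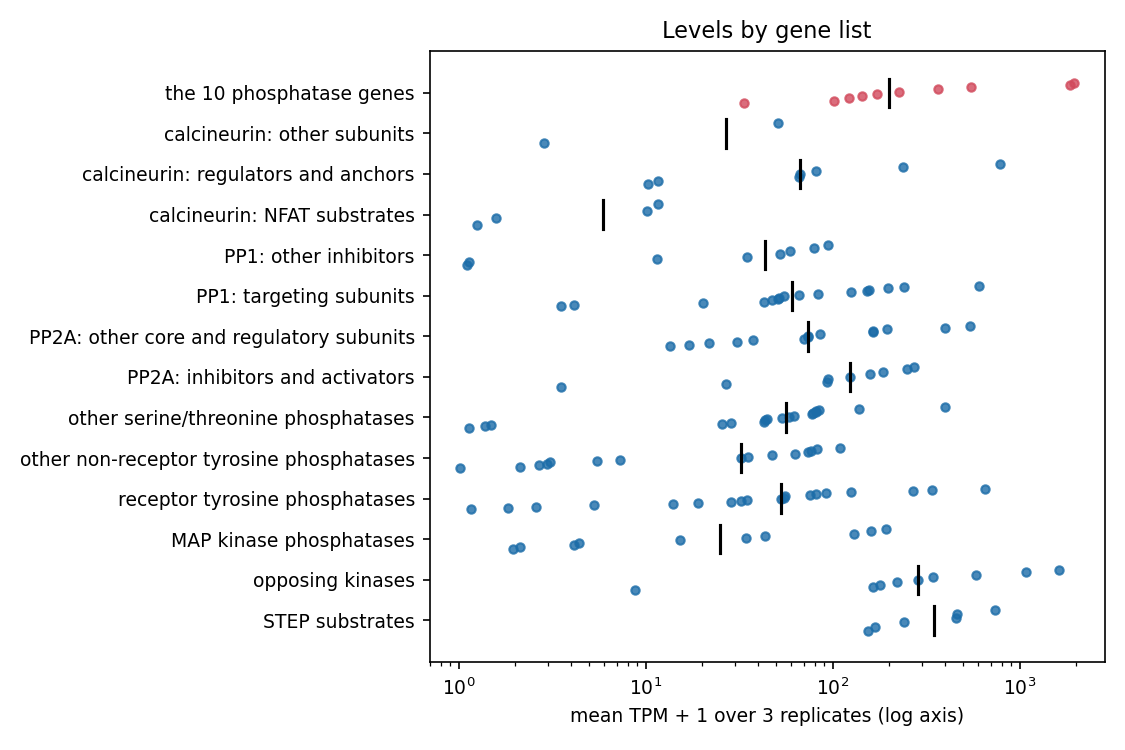
Mean TPM plus 1 over 3 replicates on a log axis for each gene of the listed groups, 1 point per gene, with the 10 phosphatase genes in red. Black ticks are the median of each list. The 10 phosphatase genes have a median of 198 TPM, and the NFAT genes are the lowest list at 4.89 TPM.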

How the data were processed

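RNA-Seq of FACS-sorted cells was analysed in 3 replicates of 1 group. The authors deposited raw counts per gene, not normalized, with merged exon length in bp. The submitters' processing notes name STAR, featureCounts, mm10 and GRCm38. Versions, read or fragment counting, strand, multimapping and the handling of overlapping exons are not given in the sources used here. The table held 0 columns of other samples. GENCODE vM21 named 52489 of 52636 gene IDs.

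TPM was computed over nuclear protein-coding genes. Genes were compared per length within each replicate as log2 ratios with the two-sided exact sign-flip permutation test. No comparison between groups exists. Alternatives were the TPM total, the normalization, the gene length, a pseudocount of 1, the detection threshold and leaving out each replicate. Scripts were tested on simulated data. Python 3.11.15, numpy 2.4.6, scipy 1.17.1, pandas 2.3.3, matplotlib 3.10.9, Biopython 1.88, R 4.3.3 and edgeR 4.0.16 (TMM factors only) were used.

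The 10 genes and the lists were chosen with earlier results of these data known. Named genes were the 10, the 3 highest of each list, any gene below 1 TPM in every replicate, and Ppp3cc, Ppp2cb, Ppp3r2 and Ppp1r1c, of which 1 gene is not reported here. Sequence partners were named by overlap. Coding sequences came from GENCODE vM21 transcripts on GRCm38, aligned by codon.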

Additional observations from a re-analysis of the deposited data

How the results depend on the processing

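Of 239 alternative values of 33 results, 147 stayed the same, 83 moved and 9 reversed. The same means within 1 SD of the main value or, for counts and CVs, within a set fold of it. With 3 replicates, leaving 1 out cannot shift a mean by 1 SD. Those values of levels, neighbour differences, ratios and shares therefore had to stay the same. A pseudocount of 1 is also small beside these levels, so the number that stayed the same is no measure of robustness. Moved values lay further off but kept their sign. The values with longest transcript length, median coding transcript length and CPM follow in that order. On the log2 scale, Ppp3ca over Ppp3cb was 2.98 and 3.29 with the longest transcript length and CPM. The sum of Ppp3ca and Ppp3cb over Ppp3r1 was 1.14, 1.57 and 1.84, and over PP1 2.64, 2.54 and 3.16. Ppp1r1a over Ppp1r1b was 3.51, 3.36 and 2.89, and that pair over PP1 -0.33, -0.84 and -1.58. Ppp2ca over Ppp2cb was -0.11, -0.11 and 2.17, and Camk2a over calcineurin A -0.93, 0.51 and -0.83. Shares of PP1 were 46.2%, 32.0% and 21.1% for Ppp1ca, 35.1%, 45.6% and 64.5% for Ppp1cb, and 18.7%, 22.4% and 14.4% for Ppp1cc. Among neighbours, Ppp1ca over Ppp3cb reversed to -0.60, -0.87 and -1.98, Ppp2ca over Ppp1cb to -0.52, -1.43 and -0.27, and Ptpn5 over Ppp1cc to -0.094 with the median coding transcript length. These alternatives change the lengths that counts are divided by. Transcript lengths are from vM21, whose merged exons matched the table's length for 8 of the 10 genes and were longer for Ppp1ca and Ppp1r1a. With Ppp1ccb added to Ppp1cc, chosen after seeing the data, the shares of Ppp1ca and Ppp1cc were 56.0% and 22.1%. Leaving out 1 replicate gave a median CV of 4.87% to 6.51%. These come from fewer values per gene, which tends to lower a CV, so they cannot be set against the CV over all replicates. Each of the 10 genes was detected under every threshold tried, and 105 to 125 of the 137 other listed genes. No paired analysis was possible because there is only 1 group. With 3 replicates the exact test used could not go below p = 0.25. Gene counts do not resolve transcripts, and no protein was measured.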

Other observations

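Other phosphatase families were present beside the 10 genes, and these values are given with no test. Of 18 other serine/threonine phosphatase genes, 15 reached 1 TPM in each replicate. The highest was Ppm1e, whose product acts on CaM kinases, at 398 ± 8.04 TPM (SD, n = 3), followed by Ppp5c at 138 ± 5.31 TPM and Ppm1f at 83.7 ± 2.74 TPM. Ppef1 had 15, 7 and 2 counts, Ppef2 3, 4 and 0, and Ppm1j 2, 3 and 3.

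Among tyrosine phosphatases, some receptor forms reached higher levels than Ptpn5, although the 19 receptor genes had a median of 49.9 TPM. Ptprn, which encodes a protein of dense-core vesicles, had 648 ± 57.8 TPM, Ptprs, an adhesion receptor of axons, 338 ± 21.6 TPM and Ptpra 266 ± 12.7 TPM, and 17 of the 19 receptor genes were detected. Ptprc, a marker of blood-derived immune cells and microglia, had 22, 15 and 7 counts. Of 15 other non-receptor genes, 13 were detected. None of them reached the 121 TPM of Ptpn5 on average, and the highest were Ptpn23 at 108 ± 0.855 TPM, Ptpn11 at 81.0 ± 2.87 TPM and Ptpn3 at 75.4 ± 4.73 TPM. Ptpn7 had 1, 1 and 0 counts. Of 10 MAP kinase phosphatase genes, 8 were detected. Dusp8 had 191 ± 8.47 TPM, Dusp7 159 ± 11.5 TPM and Dusp6 129 ± 10.6 TPM.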
